A study of Mus musculus with 6 samples.

Results

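The genes described here are 10 members of the Nrf2 antioxidant response: *Nfe2l2*, *Keap1*, *Nqo1*, *Gclc*, *Gclm*, *Txnrd1*, *Srxn1*, *Hmox1*, *G6pdx* and *Osgin1*. They were picked by gene symbol from a fixed list, and all 10 were found among the 24421 genes of the table. Hepatic mRNA of 3 male wild-type (WT) and 3 *Pai-1*+/- C57BL/6 mice, 21 weeks old by the labels and fed standard chow (SC) freely, was sequenced. The *Pai-1*+/- mice are heterozygous in the whole body and not in the liver alone. By the study's methods such mice were bred from *Pai-1*-/- and WT animals. The study's results call the WT controls littermates, and the breeding that gave WT littermates is not described. The design asks how hepatic gene expression differs between the genotypes.

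That question was not addressed here for these genes. The counts of the 6 animals stand under animal numbers that match no sample label, and columns not tied to a sample were not used, nor was the authors' own comparison of the genotypes. The levels below are the authors' means over both genotypes together, given without a value per mouse, an SD or a test. They state how strongly each gene was read in these livers and give no direction of change.

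Nrf2, encoded by *Nfe2l2*, is a transcription factor of the cap'n'collar family. In unstressed cells Keap1 binds it and hands it to a Cul3 ubiquitin ligase for degradation. When electrophiles or oxidants modify cysteines of Keap1, Nrf2 accumulates, pairs with small Maf proteins and binds antioxidant response elements near its target genes. The targets make glutathione, recycle thioredoxin and peroxiredoxins, supply NADPH, reduce quinones and break down heme. In the liver, the pathway is known for defence against drugs and other reactive chemicals.

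All 10 genes were above a mean normalized count of 10, above which a gene counts as within range here. The counts ran from 108 for *G6pdx* to 8209.7 for *Gclc*, a ratio of 76.4, against a median of 440.4 over the 12971 genes within range. Together the 10 genes took 0.0978% of all normalized counts. Because a longer transcript gives more reads, the counts give no order of abundance between genes, and levels were also divided by gene length, as the mean normalized count per kb of annotated exons. On this scale *Gclc* stood highest at 2180.0 per kb and *Osgin1* next at 1593 per kb. *Gclm* (801 per kb), *Txnrd1* (709.7 per kb) and *Srxn1* (669 per kb) followed, then *Nfe2l2* itself (548 per kb). *Keap1* (366 per kb), *Hmox1* (337 per kb) and *Nqo1* (291 per kb) formed a lower group, and *G6pdx* was far below at 34.9 per kb. The median of the 10 genes was 609 per kb and that of all genes within range with a known length was 94.6 per kb, and *G6pdx* was the only member under the latter. The spread between mice was not used here, so it is not said which neighbours in this order differ.

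**Figure D1:**
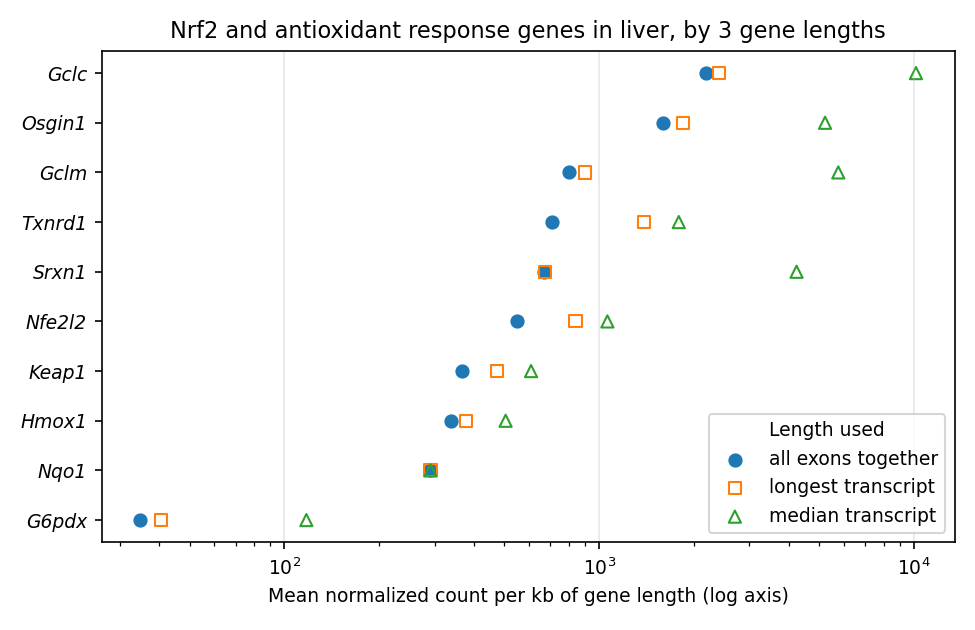
Mean normalized count per kb of gene length (log axis) for the 10 genes, each point 1 authors' mean over all libraries divided by 1 of 3 lengths: all exons together (filled circles), the longest transcript (squares) or the median transcript (triangles). *Gclc* is highest and *G6pdx* lowest under all 3, while *Srxn1*, *Gclm*, *Txnrd1*, *Nfe2l2* and *Osgin1* change places.

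The place of a gene among all genes gives these values a scale. Of the 12499 genes within range that have a length, 95.3% lay below *Gclc* per kb and 93.8% below *Osgin1*. The share was 89.1% for *Gclm*, 87.8% for *Txnrd1*, 87.1% for *Srxn1* and 84.9% for *Nfe2l2*. It was 79.0% for *Keap1*, 77.5% for *Hmox1* and 75.0% for *Nqo1*, and 30.1% for *G6pdx*. So 9 of the 10 genes stood above most genes within range, and *G6pdx* stood below most.

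**Figure D2:**
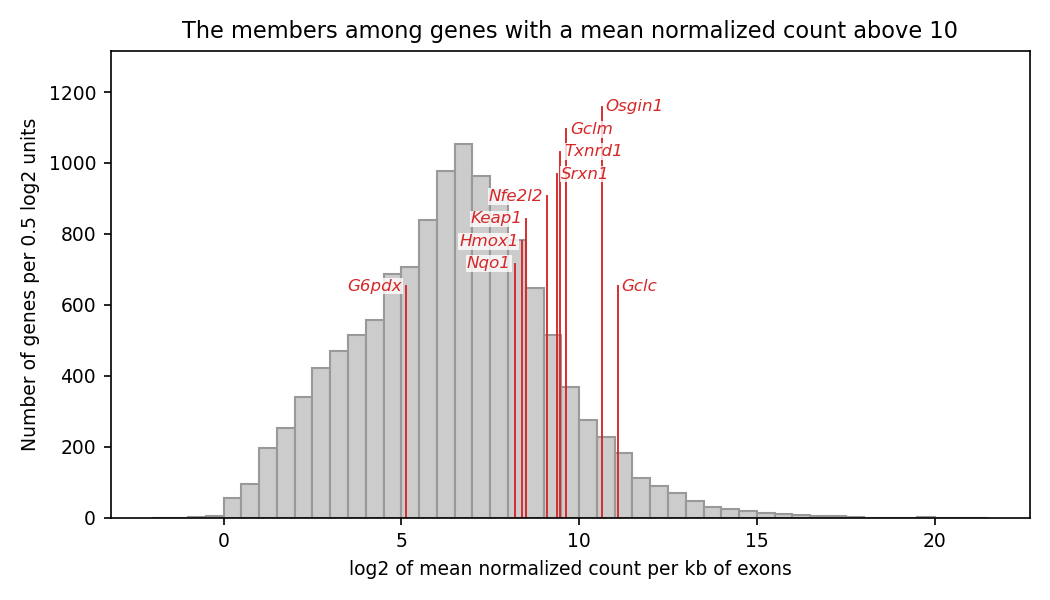
Histogram of the log2 mean normalized count per kb of exons for the 12499 genes within range (grey bars, 0.5 log2 units wide), with a red line at each of the 10 genes (line heights only separate the labels). *G6pdx* lies to the left of the peak and the other 9 lie to its right.

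The starts of these genes were searched for the letters that Nrf2 and small Maf proteins are known to bind. The core of the antioxidant response element was searched as TGACNNNGC and a looser form as TGANNNNGC, on both strands, and every core match is also a match to the looser form. RefSeq windows (GRCm38.p6) from 250 bases before to 50 bases after the start were at hand for 8 of the 10 genes, in 10 windows because *Txnrd1* has 3 starts. *Gclc* and *Hmox1* were not matched. The core letters stood in a window of 5 of the 8 genes, *Nfe2l2*, *Srxn1*, *Gclm*, *Txnrd1* and *G6pdx*, against 14.0% of the 27025 genes with a window and 17.0% of those within range here. The looser letters stood in windows of 7 of the 8, all but *Nqo1*, against 45.0% of all genes. In *Srxn1* the core lay after the start, in exonic sequence, so counting only the 250 bases before the start left 4 of 8, against 11.5% of all genes. The members' windows were richer in G and C (median 59.3%) than all windows (median 52.7%). A match is a description of letters and not evidence of binding, and windows of this size leave out more distant elements.

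The core stretches before the start are shown because the letters are those of the element the pathway is known for, and 2 looser ones because their 9 letters are the same. They are written on the strand of the gene, with the 9 matching bases in capitals. A match on the other strand appears as its reverse complement, which begins with GC and ends with TCA. *Nfe2l2* (chr2:75704880-75704913, minus strand) and *Gclm* (chr3:122245408-122245446, plus strand) have the core upstream of the annotated gene. The *Txnrd1* match (chr10:82859099-82859137, plus strand) lies before its second start and inside an intron of the longer transcripts. The *G6pdx* match (chrX:74428919-74428947, minus strand) falls in an exon of GENCODE transcripts that begin further upstream than the RefSeq start. *Srxn1* (chr2:152105464-152105502, plus strand) and *Osgin1* (chr8:119437033-119437071, plus strand) hold the looser form before the start. The *Srxn1* match is upstream of the annotated gene, and the *Osgin1* match lies in an intron of GENCODE transcripts that begin further upstream. Looser matches with other letters stood 52 bases before the start of *Keap1* (TGAACCTGC) and 75 bases before the third start of *Txnrd1* (TGAAACCGC). Further ones stood 48 and 149 bases before the start of *Srxn1* (TGAATTTGC and TGAGTCGGC). The *Srxn1* match at 48 bases lies, in lower case and as its reverse complement, inside the printed *Srxn1* stretch. The others are not printed in their surroundings.
Nfe2l2 core: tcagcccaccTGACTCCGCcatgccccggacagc
Gclm core: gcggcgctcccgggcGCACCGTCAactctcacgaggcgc
Txnrd1 core: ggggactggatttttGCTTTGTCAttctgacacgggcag
G6pdx core: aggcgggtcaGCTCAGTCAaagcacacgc
Srxn1 looser: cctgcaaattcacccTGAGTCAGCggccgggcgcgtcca
Osgin1 looser: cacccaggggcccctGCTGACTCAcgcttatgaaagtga

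Read on the strand of the match, the printed sites of *Srxn1* and *Osgin1* held the identical 9 letters, TGAGTCAGC, in opposite orientation. The *Srxn1* site ended 36 bases before the start and the *Osgin1* site 90 bases before it. The core sites of *G6pdx*, *Txnrd1* and *Gclm* ended 48, 83 and 125 bases before the start, and that of *Nfe2l2* lay 231 bases before it.

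**Figure D3:**
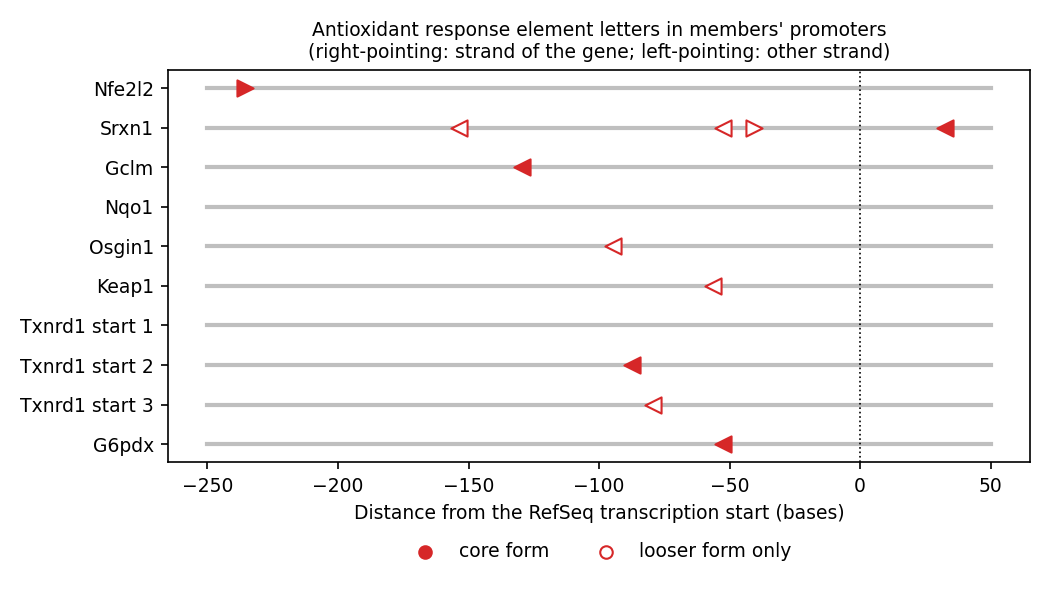
Positions of the antioxidant response element letters in 10 promoter windows of 8 genes, in bases from the RefSeq transcription start (dotted line at 0). Filled triangles mark the core form and open triangles the looser form only, pointing right for the strand of the gene and left for the other. *Nqo1* and the first start of *Txnrd1* hold neither.

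*Nfe2l2* and *Keap1* encode the sensor pair. *Nfe2l2* (chr2:75675513-75704641, minus strand, 5 exons in the principal transcript) had a mean normalized count of 2082 and *Keap1* (chr9:21229730-21239361, minus strand, 5 exons) one of 1716. Per kb of exons, the RNA of the factor was 1.50 times that of its inhibitor. The annotation gives *Keap1* 510 exonic bases, 10.9% of its exons, in common with the antisense gene *Gm16754*. Whether reads were counted by strand is not given in the sources used here, so the *Keap1* value is uncertain to that extent. *Nfe2l1*, the related cap'n'collar factor, was read at 807 per kb, 1.47 times *Nfe2l2* (1.12 times with the longest transcript). *Cul3*, the scaffold of the ubiquitin ligase that Keap1 serves, stood at 563 per kb.

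Of the 12 regulators of Nrf2 listed beside the members, all were within range, with a median of 166 per kb. *Sqstm1*, the autophagy receptor that competes with Nrf2 for Keap1, was the highest at 4464 per kb. The small Maf partners were lower than *Nfe2l2*, with *Mafg* at 154 per kb, *Mafk* at 123 per kb and *Maff* at 83.8 per kb. *Bach1*, which represses *Hmox1* and other targets at the same elements, stood at 222 per kb. Its relative *Bach2*, best known from lymphocytes, was the lowest of the list at 12.6 per kb.

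*Gclc* and *Gclm* encode the catalytic and the modifier subunit of glutamate-cysteine ligase, the first and rate-limiting enzyme of glutathione synthesis. *Gclc* (chr9:77754535-77794485, plus strand, 16 exons) had a mean normalized count of 8209.7 and *Gclm* (chr3:122245557-122270732, plus strand, 7 exons) one of 5037. *Gclm* has a 3′ untranslated region of 4335 bases beside 822 coding bases, and per kb of exons *Gclc* was 2.72 times *Gclm*. The ratio was 1.76 with the median transcript length. The annotation gives *Gclm* 296 exonic bases in common with *Gm17494* on the other strand and 244 with the pseudogene *Gm6061* on the same strand. *Gss*, the second enzyme of glutathione synthesis, was read at 318 per kb, 0.146 times *Gclc* (0.241 times with the longest transcript).

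Other glutathione genes had the largest ratio of highest to lowest level of the 7 related lists, with 10 of 12 within range and a median of 276 per kb. *Gpx1*, a selenium-dependent glutathione peroxidase, was the highest at 31966 per kb. *Gpx4*, which reduces lipid hydroperoxides, stood at 2020.4 per kb and *Gsr*, which returns oxidized glutathione to its reduced form, at 1185 per kb. The lowest was *Slc7a11*, the cystine transporter subunit and a known Nrf2 target, with a mean normalized count of 0.528. *Gpx2*, another known target that is typical of gut epithelium, had one of 6.42. Both were outside the range used here.

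*Txnrd1* and *Srxn1* encode enzymes that keep thiol proteins reduced. Txnrd1 is the cytosolic thioredoxin reductase and Srxn1, sulfiredoxin, repairs overoxidized peroxiredoxins. *Txnrd1* (chr10:82833951-82897712, plus strand, 14 exons) had a mean normalized count of 5029 and *Srxn1* (chr2:152105516-152111376, plus strand, 2 exons) one of 1888. Per kb of all exons the ratio was 1.06. It was 2.07 per kb of the longest transcript and 0.423 per kb of the median transcript, so which of these was the more abundant RNA depends on the length used. *Txnrd1* has 8 annotated transcripts from several starts, whose exons together span 7086 bases, while its longest transcript has 3622. *Txnrd2*, the mitochondrial reductase, was read at 262 per kb, and *Txnrd1* was 2.71 times that level (1.52 times with the median transcript).

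The proteins that work with these enzymes form a list of their own. All 12 genes of the thioredoxin and peroxiredoxin list were within range, with a median of 1511 per kb. *Prdx1* led at 7663 per kb, followed by *Txn1* (4753 per kb) and *Prdx6* (3600 per kb). *Prdx3*, a mitochondrial peroxiredoxin, stood at 2450 per kb and *Prdx5* at 2544 per kb. The lowest was *Sesn2*, a stress-induced sestrin, at 87.6 per kb.

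*G6pdx*, glucose-6-phosphate dehydrogenase, opens the oxidative pentose phosphate pathway and so supplies NADPH. It lies on chrX:74409483-74429194 (minus strand, 13 exons), and its mean normalized count was 108. Exonic bases in common with *Ikbkg* on the other strand came to 418, or 13.6% of the exons of *G6pdx*, and *Ikbkg* had a mean normalized count of 2377. If strand was not used in counting, reads of *Ikbkg* and *G6pdx* cannot be told apart there. *G6pd2*, the intronless relative of *G6pdx*, had a mean normalized count of 0.300.

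All 8 genes with a length in the list drawn up for NADPH supply, not all of which make NADPH themselves, were higher per kb than *G6pdx*. *Pgd*, the next dehydrogenase of the same pathway, was the lowest of them at 139 per kb, 3.99 times *G6pdx* (6.08 times with the longest and 9.23 times with the median transcript). The sugar-exchanging enzymes that follow stood at 492 per kb (*Tkt*) and 1272 per kb (*Taldo1*). Cytosolic malic enzyme, *Me1*, was read at 829.9 per kb. *Idh1*, cytosolic isocitrate dehydrogenase, was the highest at 4367 per kb. *H6pd*, the counterpart of *G6pdx* in the endoplasmic reticulum, reached 2798 per kb, or 80.2 times *G6pdx* (47.8 times with the median transcript).

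*Nqo1*, a quinone reductase often used as a readout of Nrf2 activity, lies on chr8:107388225-107403206 (minus strand, 6 exons, 1 annotated transcript). Its mean normalized count was 452, and it was 291 per kb on its short transcript of 1553 bases. *Nqo2*, its relative that uses another cosubstrate, was read at 524 per kb, 1.80 times *Nqo1* (7.32 times with the median transcript). *Nqo1* was also below the median of 992 per kb of 23 other genes of quinone, aldehyde and conjugation metabolism, all of which were within range. *Mgst1*, the microsomal glutathione transferase, led at 56879.5 per kb, with *Gstm1* at 19220.3 per kb and *Ephx1*, microsomal epoxide hydrolase, at 7570.1 per kb. *Cbr3* (17.0 per kb) and *Abcc4* (24.4 per kb), both described as Nrf2 targets, were the lowest. Close relatives among the glutathione transferases can share reads, so their single values are uncertain.

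*Hmox1*, the inducible heme oxygenase, lies on chr8:75093621-75100589 (plus strand, 5 exons). Its mean normalized count was 591, and the constitutive *Hmox2* was 2.10 times higher per kb. *Blvrb*, a biliverdin reductase, stood at 1188 per kb and *Blvra*, which makes bilirubin, at 138 per kb. The ferritin genes that store the released iron were the highest of the list, *Ftl1* at 43462 per kb and *Fth1* at 12342 per kb. Macrophages that clear red cells are also known to express *Hmox1*. The 6 Kupffer cell markers ranged from 79.6 per kb for *Timd4* to 1166 per kb for *Cd5l*. The marker ranges of stellate cells (52.7 to 1074 per kb), endothelial cells (70.1 to 372 per kb) and cholangiocytes (3.66 to 709.9 per kb) likewise held the level of *Hmox1*. Which cells carried the *Hmox1* RNA was not tested. In whole liver, fewer cells of a type and less RNA per cell cannot be told apart.

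*Osgin1*, oxidative stress induced growth inhibitor 1, is known as a target of Nrf2. It lies on chr8:119434124-119446256 (plus strand, 6 exons). Its mean normalized count was 4259.6, and per kb of exons it stood below *Gclc* alone and was 5.47 times *Nqo1*. With the median transcript length it was 17.9 times *Nqo1* and stood below *Gclm* too. It shares no exonic bases with another annotated gene.

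Enzymes that remove superoxide and hydrogen peroxide directly gave a further scale. *Cat*, catalase, was read at 37109 per kb and *Sod1* at 4984 per kb. Mitochondrial *Sod2*, at 558 per kb, was at a level like that of *Nfe2l2*, and secreted *Sod3* was the lowest of these 4 at 164 per kb.

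**Figure D4:**
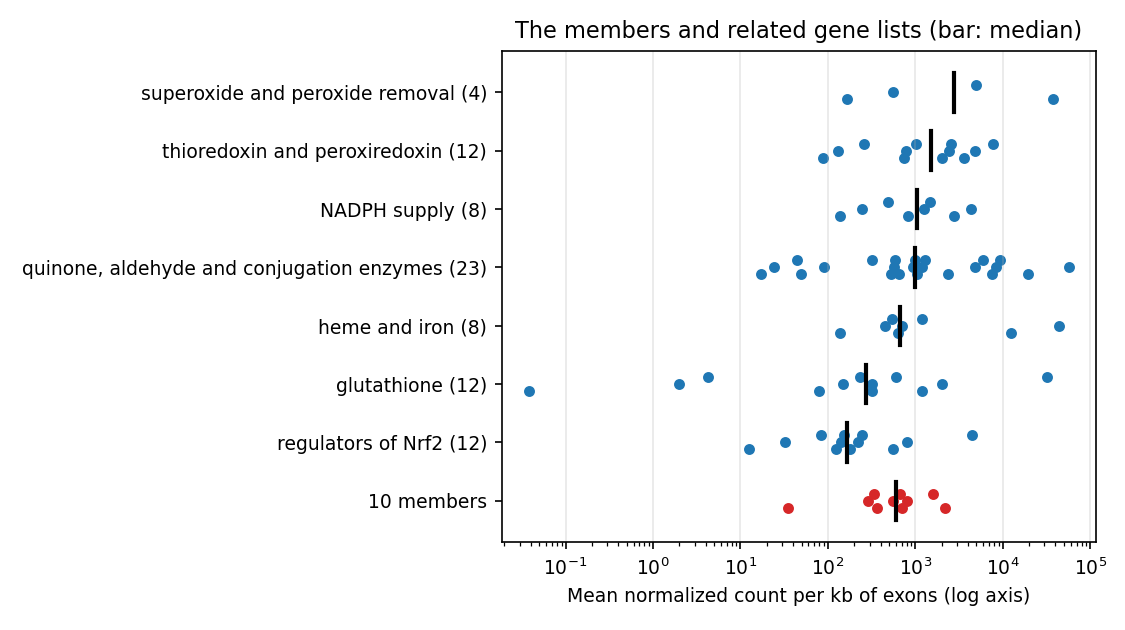
Mean normalized count per kb of exons (log axis) for the 10 genes (red) and for 7 related lists (blue, number of genes with a length in brackets), each point a gene and each black bar the median of its row. The 10 genes span 34.9 to 2180.0 per kb, inside the ranges of the regulator, glutathione and conjugation lists.

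The labelled tissue was checked against marker genes. The 6 hepatocyte markers lay between 20533.5 per kb for *Serpina1a* and 920387 per kb for *Alb*, above each of the 10 members. Markers of other liver cells were present at lower levels, with medians of 419 per kb for stellate cells, 372 per kb for Kupffer cells, 128 per kb for endothelial cells and 38.4 per kb for cholangiocytes. Of the neutrophil markers, 3 of 4 were in the table, and the highest, *S100a9*, stood at 137 per kb. All 4 globin genes looked up were listed at 0, while *Alas2*, the heme synthesis enzyme of red cell precursors, stood at 889 per kb. Why the globin genes were at 0 was not tested, so these values do not show whether the livers held blood.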

How the data were processed

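Hepatic mRNA libraries were made with KAPA kits. Single-end reads were aligned by the authors with STAR (build mm10) and analysed with DESeq2 through a BaseSpace application, and the submitters' notes also name HOMER. Versions, gene annotation and strand setting are not given in the sources used here. The only deposited values used, a signal, are the authors' mean normalized counts (the base mean of DESeq2, an average of size-factor-scaled counts across the libraries of both genotypes). Other columns of that table hold the authors' comparison of the genotypes (log2 fold changes, standard errors, statistics and p-values) and were not used. The deposited whole-number counts stand in 6 columns of animal numbers that match no label, and these were not used either. The planned edgeR test was therefore not run, and no total or spread over libraries was computed. Over all genes these means add up to 30045982, and their precision was not estimated.

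Levels per kb were computed with GENCODE M21 (GRCm38, the assembly named mm10), where a length was found by symbol for 96.4% of genes within range. Near-identical copies of at least 100 bases and 95% identity were sought with BLAST 2.17.0. Such stretches were found for *G6pdx* in *Ikbkg* (136 bases), *Keap1* in *Gm16754* (209 bases) and *Gclm* in *AC174471.1* (103 bases). Python 3.11.15, pandas 2.3.3, NumPy 2.4.6 and Matplotlib 3.10.9 were used. The search for the core letters and the share of genes below a level were tested on simulated data. The members, lists and motifs were chosen with earlier results of these data known. All 10 members are named whatever their level, and of each related list the highest and the lowest gene and those set beside a member. The other genes named were picked after their values were seen. The level of the targeted gene is not reported here.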

Additional observations from a re-analysis of the deposited data

How the results depend on the processing

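The order of the 10 genes per kb depended on the gene length used. Of the 10, 6 kept their place with the length of the longest transcript and 6 with the median transcript length, and 5 kept it under all 3 lengths, namely *Gclc*, *Keap1*, *Hmox1*, *Nqo1* and *G6pdx*. The ratio of *Gclc* to *Gclm* was 2.66 and 1.76 under these alternatives and that of *Nfe2l2* to *Keap1* was 1.77 and 1.75. The median transcript is far shorter than the longest in *Gclc*, *Gclm*, *Srxn1*, *Osgin1* and *G6pdx*. By count, the number of members among the top 10% of genes was 4 over all genes above 0 and 4 over genes within range. Per kb it was 5 over genes above 0 that have a length. Per kb over genes within range, only *Gclc* (above 95.3% of genes) and *Osgin1* (93.8%) were in the top 10%. *Gclm* was next at 89.1%, so this number depended on the genes it was counted over. No paired analysis was possible because the count columns carry no replicate number or genotype. For the same reason the alternatives planned for the genotype comparison (DESeq2, its size factors, no filter on low counts and leaving out each replicate) were not run. Depth per library and the spread between mice limit every level here and were not computed, since columns tied to no sample were left out.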
